A study of Mus musculus with 4 samples.

Results

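Paneth cells of the irradiated mouse small intestine were taken from single-cell RNA sequencing of sorted epithelium as the cells in which the alpha-defensin genes (every symbol beginning with Defa) and the lysozyme gene Lyz1 together made up at least 10% of the gene UMIs. A UMI (unique molecular identifier) marks 1 captured transcript. Barcodes had to hold 1000 UMIs and 500 genes or more, with no more than 25% of UMIs mitochondrial, and of 9591 such cells 139 were chosen by the measured levels of these genes, 93 of 5563 in the WT library and 46 of 4028 in the KO library. The KO mice were VilCreIfnlr1fl/fl, in which Cre driven by the Villin promoter deletes the floxed receptor gene of interferon-λ in intestinal epithelium, and the WT mice were the wild-type group of the series. All mice of both groups were irradiated with 11 Gy while head, thorax and upper limbs were shielded by lead, and tissue was collected after 96 h according to the series design or after 3 days according to the extraction protocol. Sorting kept live cells that carried the epithelial protein EPCAM and lacked CD45, a mark of blood cells. Each of 3 mice per genotype had a hashtag of its own (a DNA label on an antibody), and all 3 shared 1 library, so a difference between genotypes and one between pools cannot be told apart, and p-values compare mice within 2 pools. The labels name 2 experiments, of which the first was analysed here. No unirradiated mouse was analysed here.

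Paneth cells sit at the base of small intestinal crypts among the stem cells. They secrete granules rich in alpha-defensins, short antimicrobial peptides that in the mouse gut are cut to their active form by the metalloprotease Mmp7, together with lysozyme, and they supply stem cells with Wnt, Notch and EGF family signals. They arise from the same secretory lineage as goblet cells, under the transcription factor Atoh1, and mature under Wnt signalling and Sox9. Interferon-λ is a cytokine of barrier surfaces whose receptor, made of Ifnlr1 and Il10rb, is found mainly on epithelial cells.

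The genes that chose the cells lie mostly in 1 cluster on chromosome 8. In GRCm38/mm10, Defa24 (ENSMUSG00000064213) spans chr8:21734494-21735471, Defa30 (ENSMUSG00000074444) chr8:21134642-21135598 and Defa22 (ENSMUSG00000074443) chr8:21162277-21163249, all on the plus strand, while Lyz1 (ENSMUSG00000069515) lies at chr10:117287797-117292868 on the minus strand. These copies are alike enough for reads to be shared between them: of all 50-base stretches of its transcripts, 28.1% in Defa24, 52.4% in Defa30, 74.9% in Defa22, 72.9% in Defa21 and 16.1% in Lyz1 also occur in a transcript of another gene, so levels of single defensin genes are uncertain. The promoters of Defa30 and Defa22 are shown because the share of Defa30 in the defensin pool divides the Paneth cells, and that of Defa22 varies widely between mice, as described below. RefSeq's GRCm38.p6 sequences of the 250 bases before each gene's start, which for Defa30 RefSeq places a few bases inside the span given above, on the plus strand and 5′ to 3′, are as follows, with the TATAAA motif in capitals.
Defa30 (chr8:21134400-21134649): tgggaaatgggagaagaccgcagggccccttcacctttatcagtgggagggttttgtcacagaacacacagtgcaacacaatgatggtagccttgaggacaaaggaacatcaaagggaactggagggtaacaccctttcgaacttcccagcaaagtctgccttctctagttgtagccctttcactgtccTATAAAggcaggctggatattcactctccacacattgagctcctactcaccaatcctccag
Defa22 (chr8:21162027-21162276): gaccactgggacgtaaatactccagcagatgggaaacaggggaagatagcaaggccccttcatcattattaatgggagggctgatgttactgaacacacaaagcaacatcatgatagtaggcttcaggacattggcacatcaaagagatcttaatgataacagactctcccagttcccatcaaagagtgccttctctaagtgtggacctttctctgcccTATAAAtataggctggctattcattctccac
The motif begins 61 bases before RefSeq's start in Defa30 and 31 bases before it in Defa22. The 250 bases before Defa21 are identical to those of Defa22 at 250 of 250 positions. Aligned at the motif, Defa30 and Defa22 share 127 of the 189 bases before it (67.2%). TATAAA on the gene's own strand was found in the 250 bases before the start of 15 of 16 Defa genes in the RefSeq table and in 2494 of all 32851 promoters (7.59%), or in 12.4% when TTTATA, its reverse complement, was counted as well. Of the 22 Defa genes in the files 12 had a promoter in the table, 11 of them with the motif, and Defa24 had no entry. Lyz1 holds no such letters in this window. These matches describe the sequence only.

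Membership fell unevenly on the mice. WT1 to WT3 held 7 of 741, 9 of 831 and 6 of 1273 cells, and KO1 to KO3 held 15 of 1017, 9 of 969 and 14 of 856 cells. This is 0.945%, 1.08% and 0.471% in the WT mice (mean 0.833% ± 0.321, SD, n = 3) and 1.47%, 0.929% and 1.64% in the KO mice (mean 1.35% ± 0.370, SD, n = 3), and the ranges overlap between the genotypes. Single mice have wide exact Clopper-Pearson 95% intervals that cover counting error only, for instance 0.173% to 1.02% in WT3 and 0.897% to 2.73% in KO3. The whole libraries have the opposite order, 1.67% (1.35% to 2.04%) in WT and 1.14% (0.837% to 1.52%) in KO, because 49 WT members carried no hashtag and 22 were hashtag doublets, against 1 and 7 in KO. As the rule itself counts these cells, the shares were not tested. At the threshold, the WT cells just inside had 10.0% and 10.4% and those just outside 8.46% and 8.42% of their UMIs from the rule's genes, and in KO the values were 10.2% and 10.6% inside and 9.96% and 9.73% outside. Another 19 WT and 20 KO cells lay between 5% and 10%, while the median of all cells under the threshold was 0.0271% in WT and 0.0678% in KO.

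Many WT members did not behave as separate cells. Their counts were compared pair by pair over genes with at least 5 expected UMIs in both barcodes, where a chi-square per gene near 1 means that 2 barcodes differ by no more than sampling noise. In WT, 155 of 4278 pairs had a value under 1.5, which tied 58 of the 93 barcodes into 9 groups, whereas in KO 0 of 1035 pairs did and the lowest value was 3.91. The largest group held 37 barcodes, all without a hashtag, with 1405 to 9528 UMIs each, and the pair matched over the most genes (1054) held 94373 and 53108 UMIs at a value of 1.25. After each barcode was thinned to 3326 UMIs, 70 of 2775 WT pairs were still under 1.5 and 0 of 1035 KO pairs, with a lowest KO value of 1.68. Counting each group once leaves 44 WT members in place of 93, or 0.798% of the WT cells. The untagged WT members stood apart in other ways: their median depth was 3974 UMIs, and enterocyte markers made up a median of 5.50% of their UMIs outside the defensins, against 0.148% to 0.685% in the members of single mice. The cause was not tested. Of the cells assigned to 1 mouse, 2 of WT3 fell into such a group, and the main comparisons between genotypes used only the 22 WT and 38 KO cells with exactly 1 hashtag. Alternatives that assigned hashtags in another way also took in cells called doublets or untagged here.

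**Figure D1:**
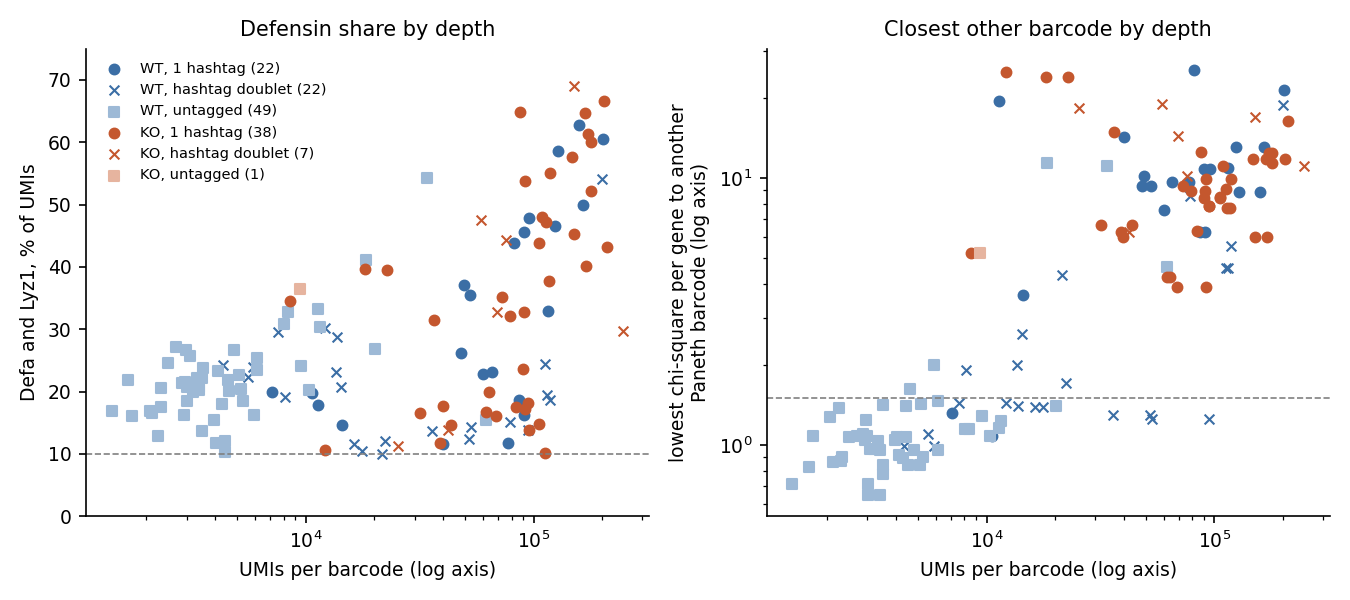
Left, share of UMIs from Defa genes and Lyz1 (%) against UMIs per barcode (log axis) for the 139 members, by library and hashtag call; the dashed line is the 10% threshold. Right, lowest chi-square per gene of each barcode to another member of its library (log axes), where the 46 KO barcodes all lie at 3.91 or above and 58 WT barcodes lie under the dashed line at 1.5.

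The cells of single mice were deep. WT1, WT2 and WT3 had median depths of 90562, 81566 and 12852 UMIs per Paneth cell and KO1, KO2 and KO3 of 89740, 68631 and 108882.5, so WT3 stands apart with shallow cells. For comparison, the other cells past the filters had a median of 7114.5 (WT) and 10754.5 UMIs (KO). The libraries held 102915321 (WT) and 110960113 (KO) gene UMIs, and of the 28 cell barcodes found in both libraries none belonged to a member. The label was checked against genes outside the rule. Every one of the 139 members had a UMI of Mmp7 and of Itln1, an intestinal lectin, and Ang4, a secreted ribonuclease with antimicrobial activity, was seen in 82 of 93 WT and all 46 KO members. In the other cells with 1 hashtag, Mmp7 was seen in 9.88% in WT and 15.1% in KO at those lower depths. Levels are given as CPM, the usual scaling of counts to the library total, here taken over UMIs outside the Defa genes and Lyz1. Markers of red, stromal, immune and tuft cells were low or absent in the sums per mouse. All 4 haemoglobin genes were at 0 in the 6 mice, as were 7 of 8 stromal genes, among them Col1a1 and Vim, and 10 of 14 immune genes, among them Ptprc, Cd3e and Cd79a. Stromal genes summed to 0 to 1.26 CPM, immune genes to 0 to 4.88 CPM and tuft cell genes, with Trpm5 and Gfi1b at 0, to 0 to 14.6 CPM. Enteroendocrine genes summed to 124, 158 and 8012 CPM in WT1 to WT3 and 114, 113 and 86.8 CPM in KO1 to KO3, so WT3 stands apart. Enterocyte genes summed to 2052 to 6905 CPM. Goblet genes were abundant in every mouse (70947 to 130937 CPM, against 49478 to 176447 CPM in the other cells) and are taken up below with the cells that carried them.

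Defa24 and Defa30 dominated the defensin pool in every mouse. Defa24 made up 59.1, 56.0 and 63.6% in WT1 to WT3 and 54.9, 55.0 and 57.4% in KO1 to KO3 of the UMIs that the rule counts (WT 59.6% ± 3.84, KO 55.7% ± 1.41, SD, n = 3), and Defa30 made up 23.2, 19.0 and 22.7% in WT1 to WT3 and 23.9, 25.2 and 27.2% in KO1 to KO3 (21.7% ± 2.28 and 25.5% ± 1.70). For Defa24 WT2 lay within the KO range, and for Defa30 every KO mouse lay above every WT mouse. Lyz1, which cleaves the bacterial cell wall, stood at 8.98, 9.94 and 6.41% in WT1 to WT3 and 5.21, 5.31 and 7.27% in KO1 to KO3, with overlapping groups. Defa21 and Defa22 moved over a wide range between mice. As 72.9% and 74.9% of their 50-base stretches also occur in other genes, their levels may not be independent of each other. Defa21 stood at 1.46, 3.69 and 0.547% in WT1 to WT3 and 5.54, 4.36 and 0.960% in KO1 to KO3, and Defa22 at 1.42, 3.41 and 0.182% in WT1 to WT3 and 3.26, 2.38 and 0.751% in KO1 to KO3. Both were lowest in WT3 and KO3 within their genotype and reached their highest shares in WT2, KO1 and KO2. Defa36 stood at 1.13, 1.72 and 1.23% in WT1 to WT3 and 2.55, 1.96 and 2.29% in KO1 to KO3, where the KO mice lay above the WT mice. Defa29 (1.38% to 2.81%), Defa17 (0.693% to 1.75%) and Defa23 (0.345% to 1.09%) followed, 13 Defa genes were each at 0.504% or less in all mice, and Defa33 had no UMI. Since these genes chose the cells, their shares are a description without a test, and they depend on which cells of a mouse were sampled, as the next comparison shows.

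Among the 60 cells of single mice, Paneth cells fell into 2 ranges. The clearest divide was in Gm14851, a gene of the same cluster (chr8:21095074-21096050, minus strand) that shares 55.6% of its 50-base stretches with other genes and whose symbol the rule does not cover. In 23 cells it stood at 0 to 617 CPM and in 37 cells at 3211 to 292110.1 CPM, with no cell between. A line at 2000 CPM, chosen after these values were seen, therefore separates them. In the other cells Gm14851 averaged 7.03 CPM in WT and 43.6 CPM in KO, and 9.17% and 45.1% of them had a UMI of it. Every mouse held both: 3 of 7, 5 of 9 and 4 of 6 cells were low in WT1 to WT3, and 4 of 15, 3 of 9 and 4 of 14 in KO1 to KO3. The split is a description, with no test.

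Cells low in Gm14851 carried goblet cell transcripts at high levels. Muc2, the main mucin of intestinal mucus, had a median of 9639 CPM in low cells and 945 CPM in high cells. Per mouse it summed to 8104, 4897, 11101, 11817, 9149 and 9454 CPM in the low cells of WT1 to WT3 and KO1 to KO3 and 2104, 1496, 2650.3, 775, 1119 and 1470.3 CPM in their high cells, so each mouse was higher in its low cells. Fcgbp, a mucus protein that binds mucins, had medians of 12997 and 321 CPM, and Zg16, a lectin that aggregates bacteria in mucus, of 55406 and 1045 CPM. Spink4, a protease inhibitor of goblet and Paneth cells, stood at 80570.4 and 12337 CPM. The same order held in 6 of 6 mice for Fcgbp, Zg16, Spink4, Tff3, Clca1, Klk1 and Agr2, the last a protein disulfide isomerase needed for mucin folding. Regulators of the secretory lineage stood higher in the low cells too, in 6 of 6 mice for Atoh1 (medians 156 and 23.6 CPM) and for Xbp1, which expands the secretory machinery (198 and 113 CPM).

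The high cells held more of several granule products, though not of all. Their median share of UMIs from the rule's genes was 45.3% against 17.5%, at a median depth of 108630.0 against 59791 UMIs. AY761184, a second cryptdin-like gene of the cluster, stood at 61512 against 482 CPM, and Mptx2, a pentraxin, at 913 against 0 CPM. The antibacterial lectin Reg3g stood at 5279 against 659.7 CPM and Itln1 at 40421 against 21217 CPM. These 4 genes, Gm15293, Gm7861 and the pancreatic-type lipid digestion genes Clps and Pnliprp2 were higher in the high cells of 6 of 6 mice. Mmp7 differed less, at 7626 against 4535 CPM, and was higher in 5 of 6 mice. Ang4 stood at 3581 against 4521 CPM and was higher in the low cells of 3 of 6 mice. Habp2 had medians of 40.7 against 78.2 CPM, but its sum was higher in the low cells of only 2 of 6 mice. Low cells were thus not without Paneth genes, since Mmp7 was at 650.2 CPM or above in each of them, above its sums in the other cells given below. Itln1 reached down to 80.3 CPM in low cells. This lies below its mean of 352 CPM in the cells under the threshold, so Itln1 does not show the same for every low cell.

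The makeup of the defensin pool differed between the ranges as well. In low cells Defa24 made up a median of 87.9% of the pool and Defa30 0.155%, and in high cells 55.1% and 25.6%. Defa17 went the other way, with 3.64% in low and 0.531% in high cells, and Lyz1 was close to equal (6.45% and 6.63%). Defa22 had a median of 0% and 0.807%. Low cells made up 14 of 22 WT and 4 of 7 KO hashtag doublets, beside 12 of 22 WT and 11 of 38 KO cells with 1 hashtag, and 3 of 49 untagged WT members. Of these barcodes, 12 of the 22 WT doublets and 44 of the 49 untagged WT members lay in the matching groups described above. Their counts are thus not counts of separate cells. Whether low cells are droplets that hold a Paneth and a goblet cell of the same mouse was not tested. The low cells gave 42.0%, 47.4% and 56.2% of the UMIs outside the defensins in WT1 to WT3 and 15.5%, 40.2% and 27.6% in KO1 to KO3, and the goblet levels of a mouse move with this makeup. With only the high cells, Defa24 averaged 53.6% of the pool in WT and 52.8% in KO, and Defa30 26.8% and 27.6%.

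**Figure D2:**
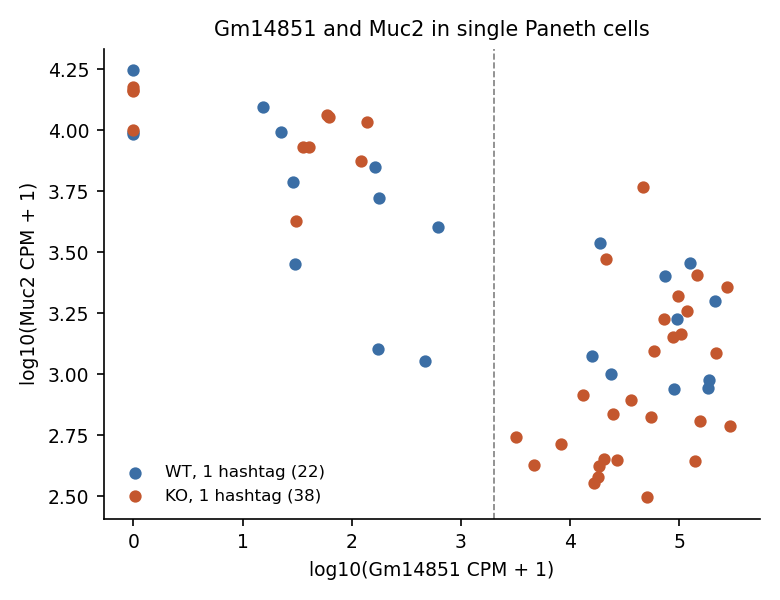
Muc2 against Gm14851 in the 60 Paneth cells with 1 hashtag, both as log10(CPM + 1), 22 from WT and 38 from KO mice; the dashed line stands at 2000 CPM. The 23 cells left of it reach higher Muc2 than the 37 cells right of it, and both genotypes are found on each side.

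**Figure D3:**
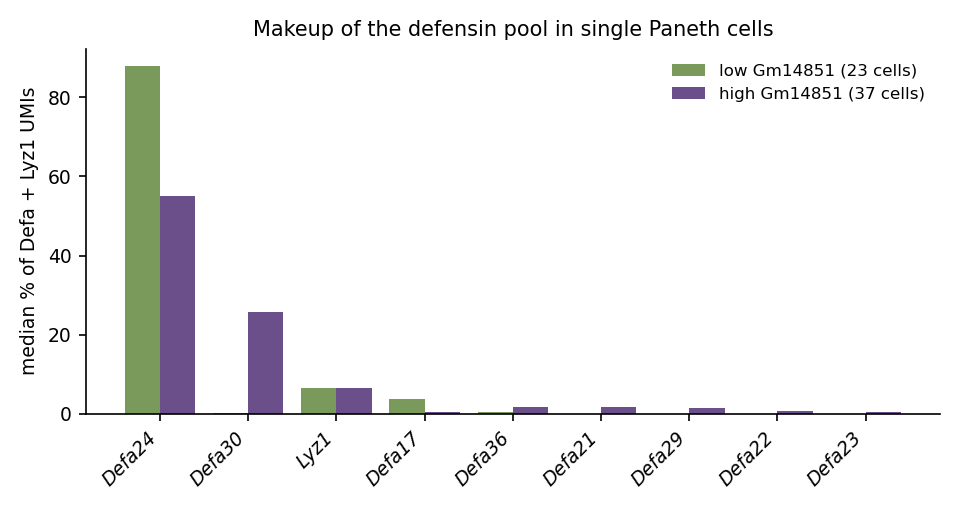
Median share of single genes in the UMIs of all Defa genes and Lyz1 (%), for the 23 cells low and the 37 cells high in Gm14851; bars are medians over cells, with no error shown. Defa24 fills most of the pool in low cells, and Defa30 appears in the high cells.

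To find what sets Paneth cells apart from the rest of the irradiated epithelium in genes that the rule did not use, the members of a mouse were summed and compared with the sum of all its other cells, with Defa genes and Lyz1 removed from both. edgeR's quasi-likelihood test with the mouse as a block and Benjamini-Hochberg adjustment called 5656 of 12221 genes, 2331 higher (19.1%) and 3325 lower (27.2%), with a median log2 difference of −0.13. Thinning every cell to 2000 UMIs gave 362 higher and 2753 lower calls and a median of −1.30, and testing without a filter on low counts gave 1356 higher and 3919 lower, so the balance of the directions depends on depth and filter. Values below are log2 differences of Paneth over other cells from the first of these fits, with ± the standard error where given. Counts of list members called are to be read beside the 19.1% higher and 27.2% lower of all genes. A gene can pass the filter through the other cells alone, so lower calls with few Paneth counts were partly set in advance.

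Secreted products were far above the other cells. Of the list of Paneth cell secreted genes, 19 of 27 tested genes were higher and 4 lower, with a median of 3.35. Mmp7, the protease that activates the defensins, stood at 7282, 7808 and 6635 CPM in WT1 to WT3 and 5907, 6008 and 5231 CPM in KO1 to KO3, against 35.0 to 148 CPM in the other cells of the 6 mice, a difference of 6.47 ± 0.51. Ang4 stood at 6192, 14151 and 6629 CPM in WT1 to WT3 and 4038, 5877 and 4176 CPM in KO1 to KO3 against 15.5 to 126 CPM (7.17 ± 0.71), and Itln1 at 25454 to 59333 against 142 to 749 CPM (6.99). In these 3 genes the lowest Paneth sum lay far above the highest sum of other cells. Mptx2 (10.20), the hyaluronan-binding serine protease Habp2 (6.06), the myeloid lysozyme Lyz2 (5.37, from 2.44 to 8.68 CPM only), Reg4 (4.14), Spink4 (4.37), Nupr1 (3.35), the guanylin gene Guca2a (3.17) and Clps (3.08) were higher in 6 of 6 mice. The largest differences belonged to cryptdin-like genes, Gm7849 (11.93), Gm14851 (11.69), Gm15293 (11.44), AY761184 (10.45), Gm15292 (10.06) and Gm7861 (9.21). They share 33.5% to 100.0% of their 50-base stretches with other genes and so are not independent of the rule. Lyz1, a gene of the rule, shares 16.1% of its stretches with 1 other gene. Whether that gene is Lyz2 is not given here, so the few Lyz2 counts may not be independent of the rule either.

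The regenerating lectins went in different directions. Reg3g was higher in Paneth cells (1.23, adjusted p = 0.0125 in edgeR), whereas Reg3b stood at 789.6 to 2494 CPM in Paneth and 6708 to 23251 CPM in other cells (−3.37 ± 0.42, adjusted p = 3.69e-06) and Reg3a was lower as well (−3.65). The other 2 lower members were Zg16 (−1.50), which goblet cells make, and Mptx1 (−2.27). Genes outside the lists among the largest differences were the phospholipase Pla2g2f (4.51), the Wnt receptor Fzd9 (7.01), the cargo adaptor Tmed6 (6.25), the coatomer subunit Copz2 (6.03), Smim38 (7.49) and the matrix glycoprotein Thbs1 (4.81). Thbs1 was seen in 40.9% of the WT and 47.4% of the KO Paneth cells, and in 0.638% and 1.43% of the other cells.

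Of signals to the stem cell niche, 6 of 20 tested genes were higher and 6 lower in Paneth cells (median −0.54), beside 19.1% higher and 27.2% lower of all genes. Wnt3, the Wnt ligand that Paneth cells are known to supply, stood at 26.8, 97.4 and 52.3 CPM in WT1 to WT3 and 36.6, 47.9 and 28.2 CPM in KO1 to KO3 and at 0.408 to 2.01 CPM in other cells, a difference of 4.97 ± 0.36. All 6 mice were higher in Paneth cells. The others that were higher were the sorting receptors Ephb3 (3.97) and Ephb2 (1.74), which keep cells at the crypt base, the surface marker Cd24a (2.63), the receptor Kit (2.32) and the Wnt feedback ligase Znrf3 (1.75). The 6 lower were Bst1 (−3.78), an ectoenzyme that makes cyclic ADP-ribose, the EGF family ligands Hbegf (−2.61), Ereg (−2.89) and Tgfa (−0.86), the Wnt receptor Fzd5 (−1.31) and the Kit ligand Kitl (−1.53). Only 11 niche genes had enough counts for a test within the Paneth sums. Ereg had 2 UMIs in the Paneth cells of WT2 and 0 in those of the other mice, so its lower call was largely set by the filter. The Notch ligands Dll1 (−0.85, adjusted p = 0.0814 in edgeR) and Dll4 (−0.70, adjusted p = 0.171) did not pass, and Egf had 5 UMIs in all and was under the filter. The call of Tgfa was lost under 11 alternatives. Of stem cell and Wnt target genes, 15 of 23 tested genes were higher and 0 lower (median 1.49), among them the ion carrier Slc12a2 (1.79) and Hopx (1.13). Their Paneth sums were 754, 1032 and 1203 CPM in WT1 to WT3 and 1191, 2351 and 812 CPM in KO1 to KO3. In the other cells they were 291, 1224 and 260 CPM and 323, 1192 and 335 CPM, so WT2 was lower in its Paneth cells. In KO2, 405 of 408 Paneth UMIs of the stem cell gene Olfm4 came from 1 cell.

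Of transcription factors of the lineage, 9 of 20 tested genes were higher and 3 lower, with a median of 0.77, beside 19.1% higher and 27.2% lower of all genes. Sox9, which Paneth cells need to form, stood at 151, 162 and 105 CPM in WT1 to WT3 and 247, 178 and 204 CPM in KO1 to KO3 and at 10.9 to 36.5 CPM in the other cells (2.57 ± 0.24). The secretory factors Bhlha15 (2.95), Creb3l4 (2.53), Creb3l1 (1.39), Foxa2 (1.62) and Foxa3 (0.92) were higher, as were Nr4a1 (2.32), Klf15 (2.82) and Spdef (1.39), the last of which had −0.75 and no call with thinned cells. Atoh1 (0.67, adjusted p = 0.0713 in edgeR) and Gfi1 (0.83, adjusted p = 0.156) did not pass. The lower factors were Tcf7l2 (−1.57), a partner of beta-catenin, the enterocyte regulator Hnf4a (−1.40) and the ubiquitin ligase gene Rnf186 (−2.76), which the list also holds. Genes of the unfolded protein response, which supports folding in cells that secrete heavily, had 16 of 30 tested genes higher and 3 lower, with sums of 8541 to 17784 CPM in Paneth and 3904 to 6564 CPM in other cells. Agr2 (2.05), also a goblet gene, gave 3409.7 to 11178 CPM of the Paneth sums, and without it the sums were 5098 to 6606 and 2541 to 5106 CPM, which overlap between mice although each mouse was higher in its Paneth cells. The translocon subunits Ssr4 (1.65) and Sec61b (1.41) and the chaperone Calr (0.93) were among the higher genes. For granule release and zinc handling, 4 of 23 tested genes were higher and 6 lower, shares near the 19.1% and 27.2% of all genes. The vesicle GTPase Rab3d (2.29) and the muscarinic receptor Chrm3 (1.30; −0.27 and not called with thinned cells) were higher, and the zinc carriers Slc39a5 (−2.28) and Slc30a2 (−1.66) were lower.

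The interferon system was low in Paneth cells of both genotypes. Ifnlr1 (ENSMUSG00000062157, chr4:135686287-135708181), the gene deleted in the KO epithelium, gave 1, 2 and 0 UMIs in the Paneth sums of WT1 to WT3 and 3, 4 and 3 UMIs in those of KO1 to KO3. These are 2.44, 4.33 and 0 CPM in WT1 to WT3 and 3.78, 8.70 and 3.26 CPM in KO1 to KO3, with overlapping groups, and the other cells held 15.9 to 28.6 CPM, a difference of −2.57 ± 0.45 with an adjusted p of 0.000150 in edgeR. Which exons the floxed allele loses is not given in the sources used here, and the libraries read the 3′ ends of transcripts, so these counts do not check the deletion. Of the interferon receptors and their kinases, 0 of 11 tested genes were higher and 6 lower: Jak2 (−2.14), the feedback inhibitor Socs3 (−2.32), Ifngr1 (−0.89), Ifngr2 (−0.92) and Jak1 (−0.75) beside Ifnlr1. The partner chain Il10rb (−0.32, adjusted p = 0.309) did not pass.

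Of interferon-stimulated genes, 2 of 58 tested genes were higher and 42 lower, with a median of −1.54. A gene can pass the filter on low counts through the sums of the other cells alone. For genes with few counts in Paneth cells, a lower level was thus partly set in advance. Enough counts for a test within the Paneth sums were found in 17 interferon-stimulated, 15 pyroptosis and necroptosis and 6 interferon receptor genes. The interferon-stimulated genes summed to 1274, 1235 and 1935 CPM in WT1 to WT3 and 1293, 835 and 955 CPM in KO1 to KO3 in Paneth cells and 4632, 3319.8 and 5692 CPM in WT1 to WT3 and 3115, 1395 and 2795 CPM in KO1 to KO3 in the other cells. In the other cells every KO mouse lay under every WT mouse, and in Paneth cells the groups overlapped because KO1 lay above WT1 and WT2. The 2 higher genes were Bst2 (1.93), which tethers virus particles, and Lgals3bp (0.85). Antigen presentation genes had 4 of 34 tested genes higher and 13 lower, beside 19.1% higher and 27.2% lower of all genes. The lower ones included B2m (−1.35), H2-D1 (−0.98) and H2-K1 (−0.96). For pyroptosis and necroptosis, 1 of 26 tested genes were higher and 19 lower, and the sums of 659 to 964 CPM in Paneth and 2042 to 2495 CPM in other cells do not overlap. The pore gene Gsdmd (−2.07) and Casp8 (−1.31) were lower, and the adaptor Pycard did not pass (−0.83, adjusted p = 0.126). Enterocyte genes, all 16 lower, still summed to 2052 to 6905 CPM in Paneth against 29292 to 81577 CPM in other cells. How far RNA of other cells enters the low counts above was not tested. Of p53 target genes, 8 of 23 tested genes were higher and 3 lower, led by Ccng1 (1.53) and the death gene Bax (1.22), and the cell cycle inhibitor Cdkn1a did not pass (−0.21, adjusted p = 0.586). Of regenerative genes, 6 of 17 tested genes were higher, among them Krt7 (1.85) and S100a6 (1.24, a call lost under 9 alternatives), and 4 lower. The p53 and regenerative counts also stand beside 19.1% higher and 27.2% lower of all genes.

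**Figure D4:**
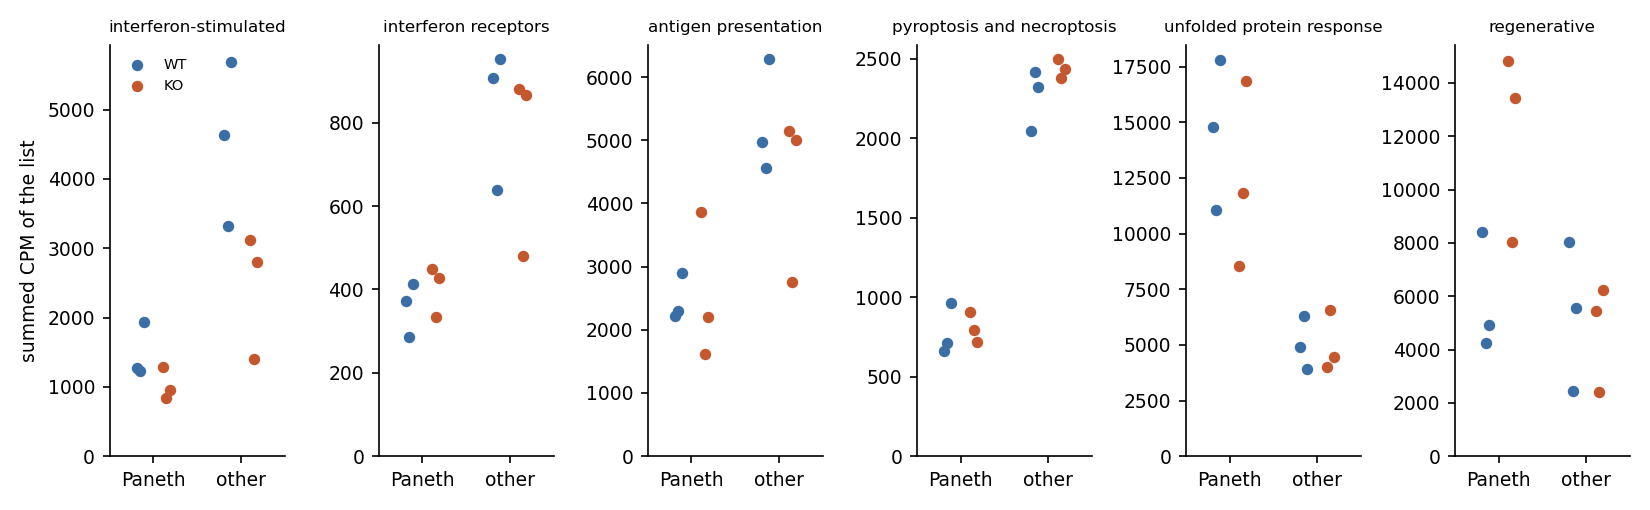
Summed CPM of 6 gene lists in the Paneth cells and in the other cells of each mouse (points: 3 WT and 3 KO mice; linear axes from 0). Interferon-stimulated, interferon receptor and pyroptosis sums are lower in the Paneth cells than in the other cells of every mouse, and unfolded protein response sums are higher.

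KO and WT Paneth cells were then compared, to ask what loss of the interferon-λ receptor changed in them. edgeR's quasi-likelihood test on the sums per mouse called 0 of 5068 genes (0.0%). An unadjusted p under 0.05 was reached by 209, with a lowest adjusted p of 0.394, and DESeq2 called 2, both higher in KO. The median log2 difference of KO over WT was −0.02. In 503 genes (9.93%) the CPM of the genotypes did not overlap, 382 with the KO mice above and 121 with them below. Leaving out KO2 gave 2 calls in edgeR, and testing without the filter on low counts gave 49, 24 higher and 25 lower. Differences below are log2 values of KO over WT ± SE. Directions depended on how cells were assigned to mice. When a cell went to the mouse with at least 3 times the hashtag UMIs of any other, which gave 10, 10 and 11 cells in WT1 to WT3 and 15, 11 and 16 in KO1 to KO3, edgeR again called 0 genes, and 40 of the 126 named genes tested changed sign. That setting is called the hashtag ratio here and is given wherever it turns a direction. The genes are those with the smallest p and the members of the lists, with their values in CPM.

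The 2 genes called by DESeq2 were Thbs1 and Sprr2a3. Thbs1 (chr2:118111876-118127133) stood at 17.1, 10.8 and 46.5 CPM in WT1 to WT3 and 125, 104 and 84.6 CPM in KO1 to KO3, with every KO mouse above every WT mouse and a log2 difference of 2.21 ± 0.40 (SE; adjusted p = 0.394 in edgeR and 0.0261 in DESeq2, between 7.60e-06, without the filter on low counts, and 0.99998 over the alternatives). Its UMIs came from 3 cells in each WT mouse and from 9, 3 and 6 cells in KO1 to KO3. The direction turned with the hashtag ratio, where Thbs1 stood at 142, 186 and 609 CPM in WT1 to WT3 and 125, 90.8 and 80.0 CPM in KO1 to KO3, a log2 difference of −1.61. In that setting 73 of 80, 99 of 104 and 137 of 145 UMIs in WT1 to WT3 came from cells that had been called doublets or untagged. With log-ratios within each hashtag the difference was 0.53. Sprr2a3 (chr3:92285417-92291405), a small proline-rich protein of stressed epithelium, stood at 87.9, 58.4 and 40.7 CPM in WT1 to WT3 and 464, 97.9 and 599 CPM in KO1 to KO3, again without overlap (2.41 ± 0.50, adjusted p = 0.685 in edgeR and 0.00516 in DESeq2, between 1.67e-09 and 0.99998 over the alternatives). Without KO2 it passed in edgeR at 2.83 with an adjusted p of 0.00502. The hashtag ratio put it at 299, 1245 and 67.2 CPM in WT1 to WT3 and 464, 87.0 and 555 CPM in KO1 to KO3 (−0.73), and 668 of the 695 UMIs in WT2 came from 1 cell that had been called a doublet.

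Regenerative genes, a fetal-like program that injured crypts are known to switch on, had a median log2 difference of 0.77 over 11 tested genes, 9 of them above 0, beside a median of −0.02 and 2378 of 5068 above 0 for all genes tested. None of them passed, and with the hashtag ratio the median was −0.14 (5 of 12 above 0). Their sum was 8417, 4242 and 4904 CPM in WT1 to WT3 and 14812, 8028 and 13426 CPM in KO1 to KO3, and the groups overlapped because KO2 lay below WT1. S100a6, a calcium-binding protein, stood at 6133, 3031 and 3213 CPM in WT1 to WT3 and 8637, 6541 and 8383 CPM in KO1 to KO3, without overlap (0.81 ± 0.34). Within the cells high in Gm14851 it stood at 6178, 3830 and 583 CPM in WT1 to WT3 and 9449, 1777 and 8519 CPM in KO1 to KO3. There the groups overlapped, as they did within the low cells. In KO2 1582 of its 3007 UMIs, and in WT3 462 of 553, came from 1 cell. Clu, a chaperone that marks injury-induced stem cells, stood at 329, 54.1 and 87.1 CPM in WT1 to WT3 and 1462, 52.2 and 978 CPM in KO1 to KO3 (2.20 ± 0.79), so that KO1 and KO3 were high and KO2 was below all WT mice. Areg, an EGF receptor ligand, stood at 2.44, 54.1 and 29.0 CPM in WT1 to WT3 and 421, 39.2 and 184 CPM in KO1 to KO3 (2.65 ± 0.74), with KO2 inside the WT range, and its relative Hbegf at 7.32, 17.3 and 17.4 CPM in WT1 to WT3 and 40.4, 37.0 and 60.8 CPM in KO1 to KO3, with no overlap (1.62 ± 0.43). Sprr1a (chr3:92483952-92485895), a cornified envelope protein, stood at 139, 2.16 and 0 CPM in WT1 to WT3 and 1528, 113 and 1552 CPM in KO1 to KO3 (4.19 ± 0.99, adjusted p = 0.876 in edgeR). Single cells carried it: 978 of its 1211 UMIs in KO1, 51 of 52 in KO2 and 1256 of 1430 in KO3 came from 1 cell each, and 53 of 57 in WT1. The integrin Itgb6 stood at 4.88, 8.65 and 23.2 CPM in WT1 to WT3 and 85.8, 21.8 and 57.5 CPM in KO1 to KO3 (2.33 ± 0.55), with KO2 below WT3. Areg stood at 395, 685 and 739 CPM in WT1 to WT3 and 421, 34.04 and 172 CPM in KO1 to KO3 with the hashtag ratio (−1.63), and Hbegf (−0.31) and Itgb6 (−0.27) turned as well, while Sprr1a, S100a6 and Clu kept their sign.

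**Figure D5:**
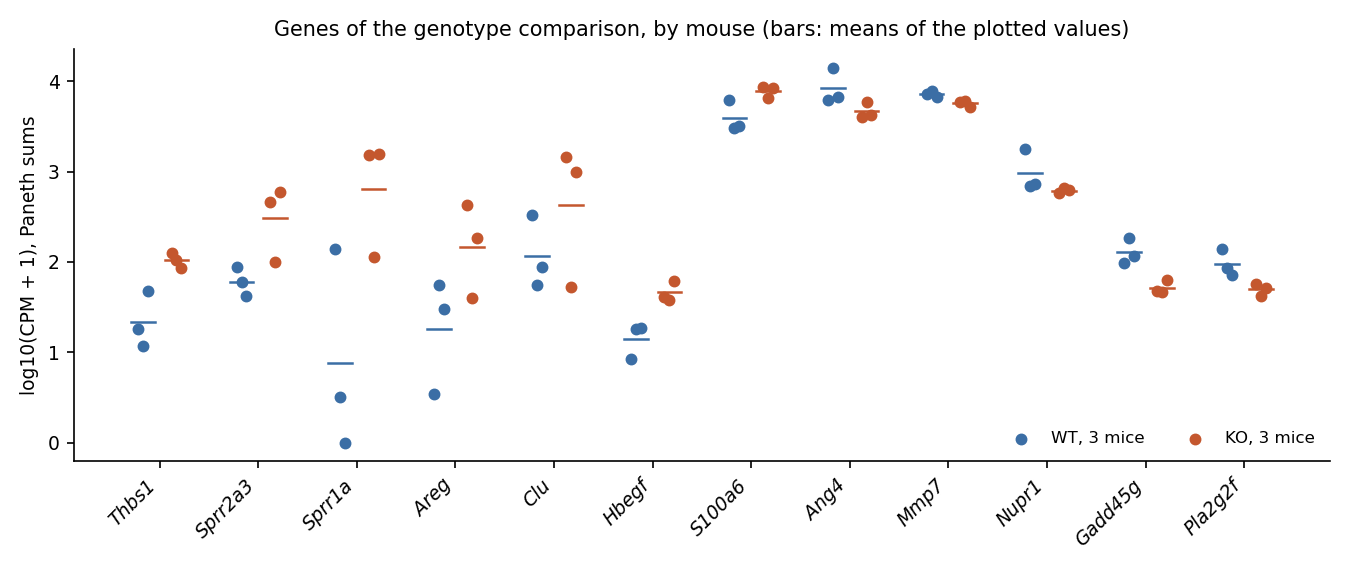
Paneth sums of 12 genes in each mouse as log10(CPM + 1), 3 WT and 3 KO mice; short bars are means of the plotted values, and none of the genes passed edgeR's test. With these hashtag calls Thbs1, Sprr2a3, Hbegf and S100a6 have all KO mice above all WT mice, Ang4, Mmp7, Nupr1, Gadd45g and Pla2g2f all below, and the other 3 overlap; with the hashtag ratio Thbs1, Sprr2a3, Areg and Hbegf turn in sign.

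Paneth products leaned the other way, and none passed. The secreted list had a median log2 difference of −0.49 over 23 tested genes, 4 of them above 0, and in 6 of the 23, 5 with the KO mice below and 1 above, the genotypes did not overlap, beside 9.93% of all genes. With the hashtag ratio the median was −0.12 (10 of 23 above 0). Mmp7 stood at the values given above, every KO mouse below every WT mouse (−0.47 ± 0.31). For Ang4, where WT2 held the highest level, the difference was −1.08 ± 0.42. Nupr1, a stress-induced chromatin protein, stood at 1752, 692 and 732 CPM in WT1 to WT3 and 571, 648 and 619 CPM in KO1 to KO3 (−0.89 ± 0.34), with no overlap. Ang (−0.66) and Guca2b (−0.80) had the KO mice below as well, and Gm15293 had them above (0.77). Itln1 (−0.46), Reg3g (−0.54) and Mptx2 (−1.57) overlapped. Goblet genes had a median log2 difference of −0.46 over 14 tested genes, 0 of them above 0, and their sums of 107691, 98011 and 130937 CPM in WT1 to WT3 and 70947, 102417 and 88798 CPM in KO1 to KO3 overlapped. These sums move with the share of low Gm14851 cells given above, whose part was not tested. With the high cells only, 0 of 3097 genes passed in edgeR and 96 had an unadjusted p under 0.05. In the sums of these cells Mmp7 kept every KO mouse below every WT mouse. Nupr1 overlapped there, at 2967, 867 and 477 CPM in WT1 to WT3 and 615, 920 and 799 CPM in KO1 to KO3. Ang4 and Gm15293 overlapped there too.

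Niche signals had a median log2 difference of −0.23 over 11 tested genes, 5 of them above 0, transcription factors a median log2 difference of −0.12 over 13 tested genes, 6 of them above 0, and the unfolded protein response a median log2 difference of −0.17 over 26 tested genes, 7 of them above 0, and no member passed. With the hashtag ratio these medians were −0.23 (5 of 12 above 0), 0.06 (10 of 15 above 0) and 0.12 (16 of 26 above 0). Wnt3 stood at the values given above, with WT2 highest (−0.89 ± 0.46). Sox9 had every KO mouse above every WT mouse (0.41 ± 0.27), as had the Notch target Hes1 (41.5, 38.9 and 17.4 CPM in WT1 to WT3 and 63.1, 63.1 and 64.0 CPM in KO1 to KO3, 0.69 ± 0.35) and Atoh1 (0.13), while Xbp1 (−0.57) and Znrf3 (−0.71) had every KO mouse below. Of these Atoh1 turned with the hashtag ratio (−0.11) and the 20% threshold (−0.19), Sox9 with log-ratios within each hashtag (−0.05), and Znrf3 with the 20% threshold (0.38) and with high cells only (0.17). In the sums of high cells Xbp1 overlapped, at 92.6, 136 and 133 CPM in WT1 to WT3 and 118, 102 and 97.4 CPM in KO1 to KO3. Atoh1 overlapped there as well, while Sox9 kept every KO mouse above every WT mouse. Metallothionein Mt1, which binds zinc and copper, stood at 412, 415 and 482 CPM in WT1 to WT3 and 949.9, 868 and 696 CPM in KO1 to KO3 (0.83 ± 0.26), without overlap. In the other cells Mt1 averaged 325 CPM in WT and 1209 CPM in KO. The smallest p among genes lower in KO belonged to Gadd45g, a stress-response gene, at 95.2, 184 and 116 CPM in WT1 to WT3 and 46.7, 45.7 and 61.9 CPM in KO1 to KO3 (−1.53 ± 0.33, adjusted p = 0.703 in edgeR). The uridine phosphorylase Upp1 (−1.81), Gm47283 (−1.18) and Pla2g2f (−1.14) also had all KO mice below all WT mice. Secretin (Sct) stood at 63.5, 119 and 4288 CPM in WT1 to WT3 and 75.7, 74.0 and 51.0 CPM in KO1 to KO3, and 548 of the 738 UMIs in WT3 came from 1 cell (−4.46 ± 1.12). With the hashtag ratio, which left that cell out, the difference was 0.02.

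The interferon lists held no call. Interferon-stimulated genes had a median log2 difference of −0.45 over 17 tested genes, 4 of them above 0. Its most abundant member, Ifi27l2b, stood at 215, 292 and 221 CPM in WT1 to WT3 and 203, 178 and 80.3 CPM in KO1 to KO3, with every KO mouse below every WT mouse (−0.82 ± 0.34). Trim25 (−0.41), Lgals3bp (−0.38) and Bst2 (−0.30) overlapped between genotypes. Of 64 list members in the files only 17 had enough counts to be tested in these few cells, so differences in the others were not detectable at this depth. Antigen presentation had a median log2 difference of −0.12 over 13 tested genes, 3 of them above 0, pyroptosis and necroptosis a median log2 difference of −0.05 over 15 tested genes, 6 of them above 0, p53 targets a median log2 difference of 0.24 over 15 tested genes, 11 of them above 0 (median −0.05 without KO1), and interferon receptors a median log2 difference of 0.17 over 6 tested genes, 4 of them above 0, a list whose median was −0.16 (2 of 7 above 0) with the hashtag ratio.

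Whether the genotype difference in Paneth cells differed from that in the other cells of the same mice was tested as an interaction. In edgeR 4 of 12221 genes (0.0327%) passed and 281 had an unadjusted p under 0.05, while 1 gene passed in DESeq2. In Sprr1a the log2 difference in Paneth cells exceeded that in other cells by 6.14 ± 0.77 (adjusted p = 0.000253 in edgeR), where the other cells averaged 71.7 CPM in WT and 35.4 CPM in KO. The chemokine genes Cxcl10 (adjusted p = 0.00412 in edgeR) and Cxcl9 (adjusted p = 0.0498) were also called, with other cells at means of 8.12 and 4.66 CPM in WT and 0.743 and 0.246 CPM in KO. Cxcl10 had 0, 1 and 0 UMIs in the WT Paneth sums and 63, 0 and 38 in the KO sums, of which 45 in KO1 and all 38 in KO3 came from 1 cell. Cxcl9 was at 0 in all WT Paneth sums and had 6, 0 and 125 UMIs in KO, 124 of them in 1 cell of KO3. The other was the hormone gene Cck, with 4, 6 and 493 UMIs in the WT sums, 356 of them in 1 cell of WT3, and 5, 1 and 4 UMIs in the KO sums (adjusted p = 0.0498 in edgeR). Leaving out 1 mouse moved the count of calls to 20 (WT1), 25 (WT2), 2 (WT3), 9 (KO1), 11 (KO2) or 8 (KO3). For interferon-stimulated genes, 46 of 58 had a less negative or more positive difference in Paneth than in other cells (median 0.52) beside 6548 of 12221 for all genes (median 0.05), and none of the 58 passed. Only 17 interferon-stimulated genes had enough counts to be tested within the Paneth sums. Few counts can draw the difference in Paneth cells towards 0, so these values do not show a weaker genotype effect there.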

How the data were processed

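Epithelial cells of 3 WT and 3 KO mice were measured as 2 pooled 10x libraries with antibody hashtags. The authors deposited UMI counts of genes and hashtags per barcode, made with Cell Ranger 7.0.1 on mm10 per the submitters' processing notes, which also name Seurat 4.1.0; how reads shared by gene copies were counted is not given in the sources used here. Counts were used as deposited, with no further doublet caller. Barcodes with at least 1000 UMIs, 500 genes and at most 25% mitochondrial UMIs were kept. Hashtags were called with HTODemux (Seurat 5.3.0, quantile 0.99) on log-ratios within each barcode, because log-ratios within each hashtag sent 9 WT barcodes to a mouse other than the one with at least 3 times the hashtag UMIs of the others, against 0. This assigned 2845 of 5563 WT cells (623 doublets, 2095 untagged) and 2842 of 4028 KO cells (291 and 895).

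UMIs were summed per mouse over cells with 1 hashtag and tested with edgeR 4.0.16 (R 4.3.3; TMM, filterByExpr, quasi-likelihood F test, Benjamini-Hochberg threshold 0.05), after removal of Defa genes and Lyz1. The sums outside these genes held 172121 to 921503 UMIs per mouse, WT3 lowest. SE is the log2 difference divided by the root of F. DESeq2 1.42.0 and other settings were alternatives, and the fits were tested on simulated data. Tables and figures used Python 3.11.15 with numpy 2.4.6, pandas 2.3.3, scipy 1.17.1 and matplotlib 3.10.9.

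Named genes are the 9 main defensin genes, detected members of the lists for secreted products, niche signals, transcription factors, granules and interferon receptors, of the other lists those that passed or the 4 most abundant, and the genes leading each comparison by size, p or abundance. The Gm14851 line and the single cells named were chosen after their values were seen. The members and lists were chosen with earlier results of these data known. A comparison that left out cells with markers of other types, and one with at least 10 cells per mouse, could not be fitted.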

Additional observations from a re-analysis of the deposited data

Results flagged for a closer look

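In 4 genes the KO against WT difference in Paneth cells differed from that in the other cells of the same mice by the interaction test of edgeR (adjusted p from 0.000253 to 0.0498). The log2 values of the difference between both effects were 6.14 for Sprr1a, 8.32 for Cxcl10, 14.56 for Cxcl9 and −5.40 for Cck. The value for Cxcl9 is no bound, since all WT Paneth sums were at 0. In Sprr1a, Cxcl10 and Cxcl9 the KO sums, and in Cck the WT3 sum, came mostly from 1 cell per mouse, as given in the report. Single alternatives lost these calls 2 times for Sprr1a, 4 times for Cxcl10, 7 times for Cxcl9 and 11 times for Cck.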

How the results depend on the processing

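For KO against WT in Paneth cells (0 calls), DESeq2 gave 2 calls, no filter on low counts 49 and thinned cells 1, and leaving out 1 mouse gave 0 to 2. In the Paneth sums, numbers of hashtags did not pair the mice: same-numbered deviations correlated at 0.106, 0.0346 and −0.103 over 4997 genes, and WT1 correlated best with KO3 (0.191). The other cells were not checked this way. There WT2 and KO2 stood apart from the other mice, with proliferation genes summing to 1759 and 2299 CPM against 120 to 210 CPM. With the replicate block 1 gene was called (Sprr1a), and the block without replicate 1, 2 or 3 gave 1, 20 and 1. For Paneth against other cells (5656), thinned cells gave 3115, and leaving out 1 mouse 4362 to 6175. For the interaction (4), DESeq2 gave 1, no filter 14, defensins kept in the total 2, the 5% threshold 1, the 20% threshold 12, the 10% mitochondrial limit 2, a hashtag ratio of 3 2, thinned cells 1, log-ratios within each hashtag 2, cells of at least 20000 UMIs 1 and cells high in Gm14851 13. Leaving out 1 mouse gave 2 to 25. Of the named genes called in the first fits, Pecam1 (0.43, hashtag ratio), Chrm3 (−0.27) and Spdef (−0.75, both thinned) reversed, each Paneth over other. Of the 126 named genes tested between genotypes, none called, 84 changed sign under at least 1 alternative. With the hashtag ratio 40 did, among them Thbs1 (−1.61), Sprr2a3 (−0.73), Areg (−1.63), Hbegf (−0.31), Itgb6 (−0.27), Atoh1 (−0.11) and Sct (0.02). Sct was at 0.11 in cells high in Gm14851. The causes were not tested.

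The WT share (1.67%) was 0.989% at the 20% threshold, 4.87% at the 10% mitochondrial limit, 0.946% with no limit, and 0.798% or 0.672% with matching barcodes (under 1.5 or 2) counted once. The KO share (1.14%) was 1.64% at the 5% and 0.745% at the 20% threshold, 2.33% at the 10% limit and 0.735% with none. The mean over WT mice was 2.07% and 0.480% at the 10% limit and with none. Over KO mice it was 1.80% and 0.858% at the 5% and 20% thresholds, and 2.90% and 0.922% at these limits. Defa24 averaged 53.6% (WT) and 52.8% (KO) in cells high in Gm14851, and 52.8% (KO) at the 20% threshold and 57.9% (KO) with log-ratios within each hashtag. Defa30 averaged 24.8% (WT) and 27.3% (KO) at the 20% threshold, and 26.8% and 27.6% in high cells. Of alternatives for single genes, 130 of those between Paneth and other cells and 24 of the interaction lost a call, and 24 between genotypes gained one. The 20% threshold and log-ratios within each hashtag left 5 mice, without WT3.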

Other observations

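In WT3, 356 of 493 Cck UMIs and 548 of 738 Sct UMIs lay in 1 cell each, and the enteroendocrine sum of that mouse was 8012 CPM against 86.8 to 158 CPM in the other 5 mice. Defensin-rich barcodes made up 22 of 623 WT hashtag doublets (3.53%) and 7 of 291 KO doublets (2.41%). Among untagged barcodes they made up 49 of 2095 in WT (2.34%) and 1 of 895 in KO (0.112%). Of the WT ones, 12 doublets and 44 untagged barcodes lay in the matching groups, so they are not all separate cells.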
